A study of Mus musculus with 4 samples.

Results

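The Sox genes encode transcription factors that share an HMG box, a domain that binds in the minor groove of DNA and bends it. Members of the family that act in the nervous system were followed here by name (Sox1, Sox2, Sox4, Sox5, Sox6, Sox8, Sox9, Sox10, Sox11 and Sox21), 10 of 55487 genes in the table, in 4 libraries of cultured mouse neural stem cells. They were chosen by name and not by a rule on these values, with earlier results of these data known. SOX proteins are sorted into subgroups by sequence. SOX1 and SOX2 (SoxB1) keep neural progenitors undifferentiated and often bind DNA beside POU factors, whereas SOX21 (SoxB2) acts mainly as a repressor. SOX4 and SOX11 (SoxC) act in neuronal precursors, SOX5 and SOX6 (SoxD) lack an activation domain of their own and modulate other SOX proteins, and SOX8, SOX9 and SOX10 (SoxE) act in glia, with SOX9 in radial glia and astrocytes and SOX10 in oligodendrocytes and neural crest.

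Neural stem cells had been derived from the embryonic neocortex of floxed mice and grown with bFGF and EGF. Whether a culture came from 1 embryo or several is not given in the sources used here. The control, labelled wild type but with the genotype given as Tut1f/f, was a culture given lipid nanoparticles (LNP) without cargo. In the other groups, LNP carried mRNA for Cre recombinase, with 3 days of treatment, and the cultures were Tut1f/f (Tut1 KO), p53f/f (labelled P53 KO, here Trp53 KO) or Tut1f/f;p53f/f (double KO), so every culture was floxed and the control lacked Cre. TUT1 adds uridines to the end of U6 snRNA, a spliceosomal RNA, and p53 is a transcription factor of the DNA damage response. The comparisons ask how the loss of Tut1 altered the cells with p53 present and without it. Each group had 1 library, so the spread between cultures is unknown, no test was run, and no error is given. Libraries without floxed alleles, or of a p53f/f culture with empty LNP, were not analysed here.

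Values are TPM, transcript abundances scaled by transcript length and library total, so levels can be compared between genes. TPM summed to between 999874 and 999892, the read depth is unknown, and 23070 to 23317 genes were listed above 0. Trp53 had 119.9 TPM (control), 100.4 TPM (Tut1 KO), 39.7 TPM (Trp53 KO) and 41.9 TPM (double KO). Tut1 went against its label, with 12.2 TPM (control), 29.8 TPM (Tut1 KO), 12.5 TPM (Trp53 KO) and 13.7 TPM (double KO). A value per gene does not show which exons the reads cover, and every direction below that involves Tut1 rests on labels. Xist, the RNA of the inactive X chromosome, was at 188 TPM (Tut1 KO) and 204 TPM (Trp53 KO) but at most 0.0097 TPM in the others. Y-linked Ddx3y was at 24.4 TPM (control) and 25.7 TPM (double KO) and listed at 0 in the other libraries. These genes were named after their values were seen. Each of the 4 contrasts below, for Tut1 and for Trp53, thus ran together with a sex-linked contrast, and the Tut1 contrast did so in opposite directions with p53 present and without it. The effects of genotype and of this split cannot be told apart.

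The coding sequence for the start of the HMG box shows how alike the members are, which bears on how reads can be assigned to them. The stretches below encode the same residues in each gene, lie within 1 exon and are given 5′ to 3′ on the strand of the gene (GRCm38, GENCODE M21 transcripts). Capitals mark bases that differ from the Sox2 stretch.
Sox2 (chr3:34650548-34650574, plus strand): aggcccatgaacgccttcatggtatgg
Sox21 (chr14:118235582-118235608, minus strand): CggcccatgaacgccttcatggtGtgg
Sox4 (chr13:28952815-28952841, minus strand): CggcccatgaacgccttTatggtGtgg
Sox6 (chr7:115489736-115489762, minus strand): CgAccAatgaaTgcGttcatggtTtgg
Sox9 (chr11:112782903-112782929, plus strand): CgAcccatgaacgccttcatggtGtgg
Sox10 (chr15:79163375-79163401, minus strand): aggcccatgaacgccttcatggtGtgg
The stretch of 27 bases was identical in Sox1, Sox11 and Sox21. Against Sox2, it differed at 1 base in Sox10, at 2 in these 3 genes, at 3 in Sox4, Sox8 and Sox9, at 5 in Sox5 and at 6 in Sox6. Beyond this stretch the transcripts diverged. The longest run of bases shared exactly by the longest transcripts of any 2 of the 10 members was 48 nt, between Sox4 and Sox11, followed by 44 nt between Sox9 and Sox10 and 38 nt between Sox2 and each of Sox1 and Sox21. How the authors divided reads that match more than 1 gene is not given in the sources used here.

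The members differ in gene structure. Sox1, Sox2, Sox4, Sox11 and Sox21 are annotated with a single exon and hence without introns, whereas Sox5, Sox6, Sox8, Sox9 and Sox10 are spliced, with up to 15, 17, 3, 3 and 5 exons per transcript. Sox2 (chromosome 3, 34650405 to 34652461, plus strand) lies within the span of the long noncoding RNA gene Sox2ot on the same strand but shares no exon bases with it. Among the single-exon genes, Sox1 on chromosome 8 (12395295 to 12400126, plus strand), Sox4 on chromosome 13 (28948919 to 28953713, minus strand), Sox11 on chromosome 12 (27334264 to 27342574, minus strand) and Sox21 on chromosome 14 (118233232 to 118237030, minus strand) lie apart from each other. The spliced genes are Sox5 on chromosome 6 (143828425 to 144781977, minus strand), Sox6 on chromosome 7 (115470872 to 116038796, minus strand), Sox8 on chromosome 17 (25565892 to 25570686, minus strand), Sox9 on chromosome 11 (112782224 to 112787760, plus strand) and Sox10 on chromosome 15 (79154908 to 79165240, minus strand). Exon bases are shared with a gene on the opposite strand in Sox4 (2616 nt), Sox5 (1330 nt), Sox21 (713 nt) and Sox8 (329 nt). Sox1 shares 86 nt with Gm25239 on its own strand, listed at 0.0974 to 0.167 TPM. The library kit marks strand, but it is not given whether the counting used it, so these values are uncertain. Gm4675, the gene opposite Sox21, was listed at 3.15 to 4.02 TPM, and Sox5os1, opposite Sox5, at no more than 0.0492 TPM. Gm26735, opposite Sox4, and 2810468N07Rik, opposite Sox8, were not listed under these names, so their levels could not be checked.

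The 10 Sox genes kept nearly the same order of levels in all 4 libraries. Sox2 was the most abundant in each, followed by Sox4, Sox9, Sox8 and Sox11, and Sox5 was eighth in each. Only Sox6 and Sox21, and Sox1 and Sox10, changed places. Between the lowest and the highest library, the ranges of neighbours in this order overlapped for Sox4 and Sox9, for Sox6 and Sox21 and for Sox1 and Sox10, and did not overlap for the other neighbours. The plot of levels shows this ladder on a log axis.

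**Figure D1:**
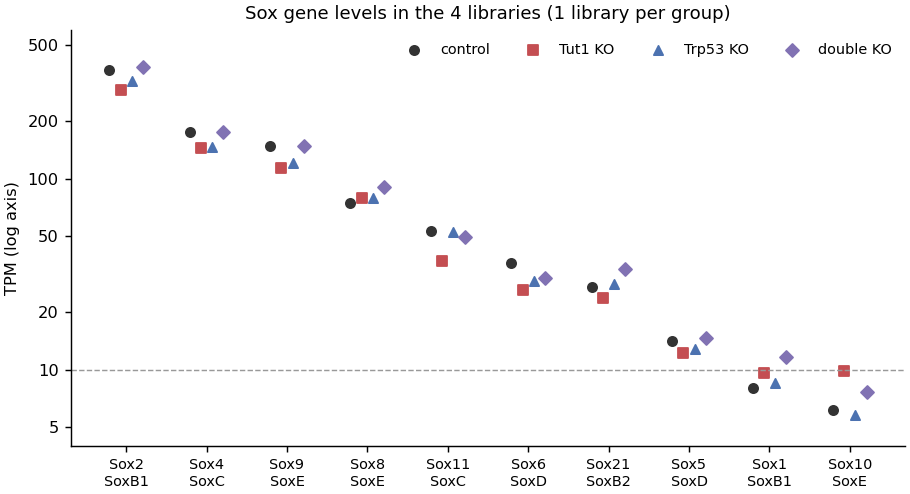
TPM (log axis) of the 10 Sox genes, ordered by mean level, with 1 point for each of the 4 libraries and the subgroup under each name. Sox2 sits between 293 and 385 TPM and Sox10 between 5.81 and 9.81 TPM, and the dashed line marks the minimum of 10 TPM used for calls.

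Among SoxB1 genes, Sox2, a core factor of neural stem cell maintenance, had 369.8 TPM (control), 293 TPM (Tut1 KO), 324 TPM (Trp53 KO) and 385 TPM (double KO). The control and the double KO were the higher pair and the library labelled Tut1 KO was the lowest. Sox2 lay between percentiles 97.9 and 98.5 of genes listed above 0. On the log2(TPM + 1) scale, used for every difference below, its difference was -0.34 for Tut1 KO minus control, 0.25 for double KO minus Trp53 KO, -0.19 for Trp53 KO minus control and 0.39 for double KO minus Tut1 KO. In bulk libraries, fewer cells of a type and less RNA per cell cannot be told apart.

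Sox1, a close relative of Sox2 in neural progenitors, was far less abundant, at 8.05, 9.66, 8.47 and 11.6 TPM in the order control, Tut1 KO, Trp53 KO, double KO. Its highest value was in the double KO library and its lowest in the control. Its differences were 0.24 for Tut1 KO minus control and 0.41 for double KO minus Trp53 KO, so unlike Sox2 it had the same sign in both. The ratio of Sox1 to Sox2 TPM within a library, which does not depend on how the library was scaled, ranged from 0.0218 in the control to 0.033 in the library labelled Tut1 KO. Sox3, the SoxB1 gene outside the 10, stood between them at 101.5, 98.5, 91.2 and 96.6 TPM in the same order.

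Sox21, the SoxB2 gene, whose product counteracts SoxB1 proteins, had 27.3 TPM (control), 23.7 TPM (Tut1 KO), 28.2 TPM (Trp53 KO) and 33.7 TPM (double KO). The library labelled Tut1 KO was the lowest and the double KO the highest. Its differences were -0.20 for Tut1 KO minus control and 0.25 for double KO minus Trp53 KO. The former was -0.07 with quantile normalization and -0.11 with the median over all genes set to 0. Double KO minus Tut1 KO was 0.49, the highest of the 10 members in that contrast. Relative to Sox2 it stayed between 0.0738 and 0.0875.

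The SoxC genes Sox4 and Sox11 summed to 229 TPM in the control. Sox4, which acts in precursors that leave the cell cycle, had 176 TPM (control), 144 TPM (Tut1 KO), 146 TPM (Trp53 KO) and 176 TPM (double KO). The control and the double KO were again the higher pair, and the other libraries lay close together. Its differences were -0.28 for Tut1 KO minus control, 0.27 for double KO minus Trp53 KO, -0.26 for Trp53 KO minus control and 0.29 for double KO minus Tut1 KO. A correction for transcript GC content and length gave -0.16 and 0.19 for the first and last of these, and the cause was not tested.

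Sox11, its partner in neuronal precursors, had 53.2, 37.3, 52.4 and 49.5 TPM in the order control, Tut1 KO, Trp53 KO, double KO. One library stood apart, with the one labelled Tut1 KO below the other 3, which lay close together. Its differences were -0.50 for Tut1 KO minus control and 0.40 for double KO minus Tut1 KO, but only -0.08 for double KO minus Trp53 KO and -0.02 for Trp53 KO minus control. After the correction for GC content and length, the former values were -0.21 and 0.15. The ratio of Sox4 to Sox11 was 3.30 in the control, highest in the library labelled Tut1 KO (3.87) and lowest in that labelled P53 KO (2.79), with 3.56 in the double KO. Sox12, the SoxC gene outside the 10, ran flat at 41.9 to 45.5 TPM.

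Of the SoxD genes, Sox6 had 36.2 TPM (control), 26.1 TPM (Tut1 KO), 29.3 TPM (Trp53 KO) and 30.3 TPM (double KO). Here the control stood above the 3 libraries that had received Cre. Its differences were -0.46 for Tut1 KO minus control, -0.30 for Trp53 KO minus control and 0.21 for double KO minus Tut1 KO, with 0.05 for double KO minus Trp53 KO. Sox5 was less abundant, at 14.1, 12.3, 12.8 and 14.6 TPM in the same order, and was the most even of the 10, with a range of 0.23 over the 4 libraries. Its differences lay between -0.19 and 0.23. After the correction for GC content and length, Sox6 stood at -0.16 for Tut1 KO minus control and at -0.06 for double KO minus Tut1 KO, and signs of Sox5 or Sox6 turned in all 4 contrasts. Sox13, the third SoxD gene in the family, had 6.25 to 8.18 TPM.

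The SoxE genes split by level and by pattern. Sox9, a factor of radial glia, had 147.9 TPM (control), 113 TPM (Tut1 KO), 121 TPM (Trp53 KO) and 148.8 TPM (double KO). As for Sox2 and Sox4, the control and the double KO were the higher pair. Its differences were -0.38 for Tut1 KO minus control, 0.30 for double KO minus Trp53 KO, -0.29 for Trp53 KO minus control and 0.39 for double KO minus Tut1 KO. With the correction, the first and last of these were -0.24 and 0.26. Set against Sox2 in the same library, Sox9 hardly moved, with ratios of 0.40, 0.39, 0.37 and 0.39 in the order control, Tut1 KO, Trp53 KO, double KO, a span of 1.07-fold and the narrowest of the 9 ratios computed.

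Sox8, which is expressed with Sox9 and Sox10 in the glial lineages, had 74.7 TPM (control), 78.9 TPM (Tut1 KO), 79.1 TPM (Trp53 KO) and 90.9 TPM (double KO). The double KO was the highest and the other 3 lay within a few TPM of each other. Its differences were 0.08 for Tut1 KO minus control and 0.20 for double KO minus Trp53 KO. The ratio of Sox8 to Sox9 was 0.50 in the control and 0.66, 0.61 and 0.70 in the Trp53 KO, double KO and Tut1 KO libraries.

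Sox10, the oligodendrocyte and neural crest factor, was the only one of the 10 that never reached 10 TPM. It had 6.16 TPM (control), 9.81 TPM (Tut1 KO), 5.81 TPM (Trp53 KO) and 7.61 TPM (double KO). The library labelled Tut1 KO was the highest for Sox10, the opposite of its place for Sox9. Its differences were 0.59 for Tut1 KO minus control and 0.34 for double KO minus Trp53 KO, and -0.33 for double KO minus Tut1 KO. With the correction for GC content and length, these were 0.52, 0.40 and -0.18. The ratio of Sox10 to Sox9 was 0.0417, 0.0865, 0.0482 and 0.0511 in the order control, Tut1 KO, Trp53 KO, double KO, the widest span of the ratios at 2.08-fold. Olig1, the most abundant gene of the oligodendrocyte lineage list, had 1029, 942, 895 and 921 TPM in the same order and was highest in the control. Of the 6 genes of that list tested for Tut1 KO minus control, 5 were lower, where 60.73% of all genes tested were lower. Cspg4 was the 1 that was higher, with 67.6, 74.6, 53.4 and 57.2 TPM. Like Sox10, it was highest in the library labelled Tut1 KO and lowest in the Trp53 KO library.

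A gene was called when it had at least 10 TPM in 1 or both libraries compared and differed by at least 1 (2-fold). For Tut1 KO minus control, 0 of the 8 members that reached the minimum were called, where 4.1% of 9032 genes were called. For double KO minus Trp53 KO it was 0 of 9 members against 3.21% of 8976 genes. For Trp53 KO minus control it was 0 of 8 members against 3.83% of 9055 genes, and for double KO minus Tut1 KO 0 of 9 members against 3.9% of 8950 genes. For so few genes, a count of 0 is not set apart from these shares. At 1.5-fold the count of members called was again 0 in every contrast, against 12.1%, 7.89%, 8.42% and 10.7% of genes tested in the same order. Sox10 was below the minimum in all 4 contrasts and was the only member called for Tut1 KO minus control at 1.5-fold with a minimum of 1 TPM, a rule chosen after seeing the data that called 15.2% of genes. Sox1 reached 10 TPM only through the double KO library. The median range over the 4 libraries was 0.43 for the 10 members, from 0.23 (Sox5) to 0.67 (Sox10), close to 0.39 for the 9314 genes with at least 10 TPM in some library. Of these genes, 9.28% had a range of at least 1, and none of the Sox genes did.

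The small differences leaned to one side in each contrast, the side to which most genes leaned. For Tut1 KO minus control, 7 of the 10 members were lower, with a median of -0.24, where 60.73% of all genes tested were lower, with a median of -0.09. For double KO minus Trp53 KO, 9 of 10 were higher, with a median of 0.25, where 58.73% of all genes tested were higher, with a median of 0.05. For Trp53 KO minus control, 7 of 10 were lower, where 59.93% of all genes tested were lower, with medians of -0.10 for the members and -0.05 for all genes. For double KO minus Tut1 KO, 9 of 10 were higher, where 60.32% of all genes tested were higher, with medians of 0.26 and 0.09. Among the members that reached the 10 TPM minimum set for all genes, 7 of 8 were lower, 8 of 9 higher, 6 of 8 lower and 9 of 9 higher in the same order of contrasts, with medians of -0.31, 0.25, -0.16 and 0.29. Sox1 counts in the double KO contrasts alone, where it passed through its high value in the double KO library and so had to be higher. The 4 contrasts share libraries in pairs, so these counts are not independent of each other. With the median over all genes set to 0, the medians of the members were -0.15, 0.20, -0.05 and 0.18 in the same order of contrasts. After the correction for GC content and length the counts were 6 lower, 8 higher, 5 lower and 7 higher of 10, and the medians -0.16, 0.23, -0.03 and 0.20. Sox6 in double KO minus Trp53 KO and Sox11 in Trp53 KO minus control, both near 0, also turned their sign when the median over all genes was set to 0.

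**Figure D2:**
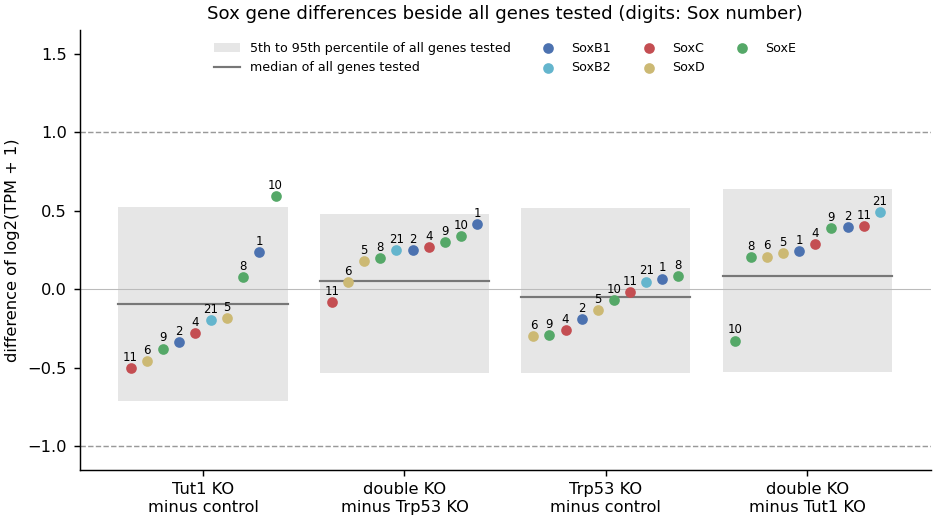
Differences of log2(TPM + 1) of the 10 Sox genes (points, coloured by subgroup and marked with the Sox number) in the 4 contrasts, with the 5th to 95th percentile (grey) and the median (line) of all genes tested. No Sox gene reaches the dashed lines at 1 and -1, and Sox10 in Tut1 KO minus control, at 0.59, is the only point outside the grey range, which ends there at 0.52.

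The Tut1 contrast with p53 present less the contrast without it was negative in 9 of 10 members, from -0.68 (Sox9) to 0.26 (Sox10), with a median of -0.43. Over all 9314 genes with at least 10 TPM in some library, 62.21% were negative and the median was -0.14. With the correction for GC content and length the median of the members was -0.12. The control and the double KO library were both above the other libraries for Sox2, Sox4, Sox5, Sox6 and Sox9, 5 of the 9 members among the 9314 genes (all but Sox10), a pattern held by 28.47% of those genes, and the inverse pattern by none of the 9 members and 11.47% of genes. These are the same pairs of libraries that Xist and Ddx3y separate, and the difference between the Tut1 contrasts is a contrast of these pairs. The library labelled Tut1 KO was the lowest of the 4 for 7 of the 9 members among the 9314 genes and for 41.09% of those genes.

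**Figure D3:**
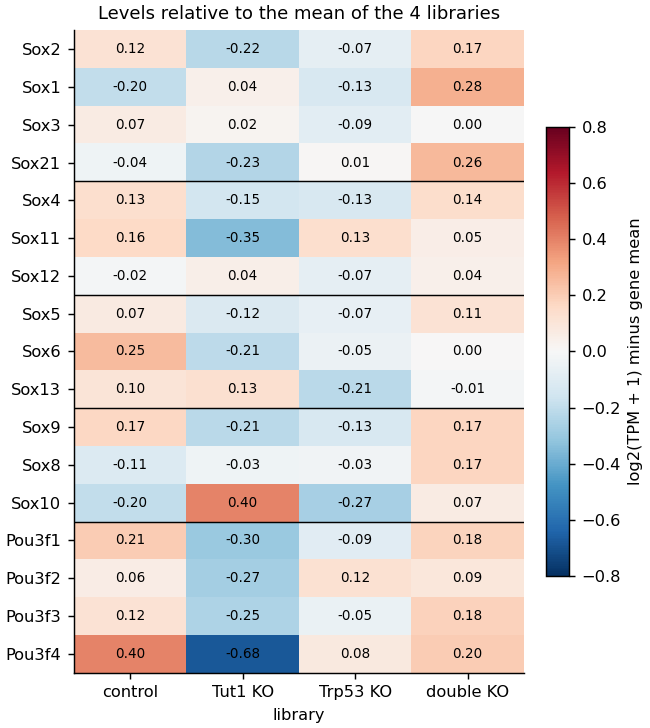
Log2(TPM + 1) of each gene less its mean over the 4 libraries, for the 10 Sox genes, Sox3, Sox12, Sox13 and the 4 Pou3f genes, 1 column per library, with lines between the SoxB, SoxC, SoxD, SoxE and POU blocks. Red is above and blue below the mean, and the library labelled Tut1 KO ranges from 0.40 (Sox10) to -0.68 (Pou3f4).

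Promoters of Sox2, Sox4 and Sox8 are shown as examples of abundant members of the SoxB1, SoxC and SoxE subgroups. The sequences below are bases 250 to 21 before the RefSeq start of each gene (GRCm38.p6), 5′ to 3′ on the strand of the gene, with capitals for the CCAAT box (CCAAT, or ATTGG on the other strand).
Sox2 (chr3:34649745-34649974, plus strand): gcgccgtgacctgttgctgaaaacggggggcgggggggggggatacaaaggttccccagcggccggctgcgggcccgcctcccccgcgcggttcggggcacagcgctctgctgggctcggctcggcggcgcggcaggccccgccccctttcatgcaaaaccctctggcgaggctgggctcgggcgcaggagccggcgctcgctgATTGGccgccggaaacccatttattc
Sox4 (chr13:28953720-28953949, minus strand): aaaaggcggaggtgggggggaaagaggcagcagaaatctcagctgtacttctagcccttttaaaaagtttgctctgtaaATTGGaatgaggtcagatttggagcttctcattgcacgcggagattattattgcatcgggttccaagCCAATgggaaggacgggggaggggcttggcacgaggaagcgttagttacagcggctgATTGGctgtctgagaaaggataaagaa
Sox8 (chr17:25570707-25570936, minus strand): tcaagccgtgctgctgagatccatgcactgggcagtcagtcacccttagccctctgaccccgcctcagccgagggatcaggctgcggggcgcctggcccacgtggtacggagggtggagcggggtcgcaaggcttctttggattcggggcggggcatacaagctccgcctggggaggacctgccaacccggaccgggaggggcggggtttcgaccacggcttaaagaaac
The window of Sox2 held 1 CCAAT box, that of Sox4 held 3 and that of Sox8 held none. Among members with the control and the double KO as the higher pair, Sox2, Sox4 and Sox6 had CCAAT boxes. Sox6 had them in only some of its windows, Sox5 had none, and Sox9 had no window. Of the other members with a window, Sox1 and Sox11 had 1 each, and Sox8 and Sox21 had none. The window of Sox5 lies inside the annotated span of the gene. A link between CCAAT boxes and profiles was not tested. A window was found for 8 of the 10 members (all but Sox9 and Sox10, with several windows for Sox6), 13 windows in all, of which 6 belong to Sox6. A CCAAT box was in 6 of the 13 windows, from 5 genes, and in 32.182% of 32851 windows of the same length over all genes. ACAAAG, a sequence that SOX proteins can bind, searched on both strands, was in 6 of the 13 windows, from Sox2 (1 window) and Sox6 (5 windows), and in 15.427% of all windows. These matches describe letters in the window and say nothing of binding.

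By subgroup, and over the 10 members alone (without Sox3, Sox12 and Sox13), summed SoxB1 TPM was 378, 302, 333 and 397 in the order control, Tut1 KO, Trp53 KO, double KO, and summed SoxE TPM was 229, 202, 206 and 247. Summed over the 10 genes, TPM was 913, 748, 807 and 948 in the same order, so the control and the double KO libraries stood above the others as for Sox2, which supplied the largest part. The 10 genes made up 83.1% to 86.3% of the TPM of all Sox family genes measured, Sry included. Of the other 10 family genes, Sox3, Sox12 and Sox13 were the only ones to reach 1 TPM, and Sox14, Sox17 and Sry were listed at 0 in every library. Of these, Sox3 and Sox12 reached 10 TPM, and neither was called in any contrast, with medians between -0.10 and 0.10. Sox2ot had 5.09, 3.29, 2.68 and 3.22 TPM, 0.83% to 1.38% of Sox2, and was highest in the control, a pattern unlike that of Sox2.

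**Figure D4:**
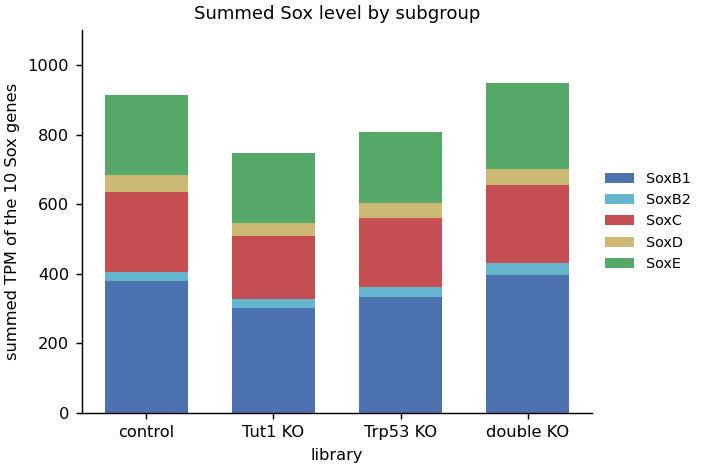
Summed TPM of the 10 Sox genes in each of the 4 libraries (bars from 0, 1 library each), stacked by subgroup. The sums are 913, 748, 807 and 948 TPM from left to right, and the SoxB1 members form the largest block in each.

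Single-exon and spliced Sox genes were compared because the study concerned splicing. For Tut1 KO minus control, the median was -0.28 for the 5 single-exon members, from -0.50 to 0.24, and -0.19 for the 5 spliced members, from -0.46 to 0.59. For double KO minus Trp53 KO the medians were 0.25 and 0.20. For Trp53 KO minus control they were -0.02 and -0.14, and for double KO minus Tut1 KO 0.39 and 0.21. The 2 classes overlapped in every contrast. Over the annotated protein-coding genes tested, the medians for Tut1 KO minus control were -0.15 for 152 single-exon genes and -0.10 for 8098 spliced genes. TPM per gene does not show intron retention or isoforms, which were not analysed here.

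POU factors bind beside SoxB1 and SoxC proteins at shared enhancers. Of 5 POU genes listed, Pou2f1 stayed under 10 TPM and the 4 brain POU genes of class III were measured. Pou3f4 was called lower for Tut1 KO minus control, with 16.7, 7.40, 13.2 and 14.5 TPM in the order control, Tut1 KO, Trp53 KO, double KO and a difference of -1.08, in a contrast where 2.61% of genes tested were called lower. Pou3f3, the most abundant, had 73.2, 56.5, 64.9 and 76.5 TPM, with a difference of -0.37 that was not called. All 4 were lowest in the library labelled Tut1 KO, as were 41.09% of the 9314 genes with at least 10 TPM in some library. Sox2, Sox4, Sox5, Sox6, Sox9, Sox11 and Sox21 were also lowest there, whereas Sox1, Sox8 and Pou2f1 were lowest in the control. A link between POU and Sox levels was not tested. In the other 3 contrasts no POU gene was called.

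Of 13 textbook SOX targets, 9 reached 1 TPM and 3 reached 10 TPM, and none was called. Of all genes tested, 3.21% to 4.1% were called by contrast. Nestin (Nes), an intermediate filament whose neural enhancer binds SOX2 with POU factors, had 417, 392, 337 and 313 TPM in the order control, Tut1 KO, Trp53 KO, double KO. Of the 3 genes at 10 TPM or more (Nes, Tubb3 and Nfia), 0 were higher for Tut1 KO minus control and 2 for double KO minus Trp53 KO. It was 1 for Trp53 KO minus control and 2 for double KO minus Tut1 KO, and Nes was the lower one in both double KO contrasts. Of all genes tested, 39.27%, 58.73%, 40.07% and 60.32% were higher in the same order. For so few genes, the counts are not set apart from these shares. Fgf4, a SOX2 target of pluripotent cells, was listed at 0 in all libraries.

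The labelled cell type was checked against marker lists, since several Sox genes mark other lineages. All 12 radial glia and neural stem cell genes reached 10 TPM, led by Fabp7 at 7902 to 9441 TPM, none was called, and their medians lay between -0.08 and 0.15. The oligodendrocyte lineage list, with 7 of 13 genes at 10 TPM or more and a sum of 1710 to 1937 TPM, had no call either. The share of all genes tested that was called was 3.21% to 4.1% by contrast. Of 12 astrocyte genes 8 reached 10 TPM, and of 18 neuronal genes 5 did. Nfix, a gliogenic factor, had 26.9, 4.17, 10.6 and 32.4 TPM in the order used above and was called in all 4 contrasts. Sparcl1, an astrocyte gene, had 92.8, 138.7, 254 and 141.7 TPM and was called higher for Trp53 KO minus control. Elavl4, a neuronal RNA-binding protein gene, had 19.8, 0.37, 16.9 and 22.0 TPM and was called lower for Tut1 KO minus control and higher for double KO minus Tut1 KO. As for Sox2 and Sox9, the control and the double KO were the higher pair for Nfix, with much larger steps.

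Markers of other lineages in which Sox genes act were mostly low. The 7 neural crest and Schwann cell genes summed to 6.01 to 8.03 TPM, most of it Egr2 at 4.57 to 6.65 TPM, a level like that of Sox10, with Mitf at up to 1.28 TPM and Foxd3 and Tfap2b at 0. Their part in the level of Sox10 was not tested. The 9 connective tissue genes summed to 13.2 to 19.5 TPM, most of it Prrx1 at 11.5 to 17.7 TPM, about the level of Sox5, with Dcn and Lum at 0. Endothelial genes, a site of Sox17 and Sox18, summed to at most 1.30 TPM, and microglial genes to at most 0.0175 TPM. In neuronal genes the summed level was 338, 246, 306 and 322 TPM, with Neurod2 and Neurod6 at 0 throughout, lowest in the library labelled Tut1 KO as for Sox11 and Sox4, and its part in their levels was not tested. Map2, with 208 TPM in the control and 141 TPM in that library, and Elavl4 carried most of this step, while Dcx had 2.77 and 3.13 TPM and Gad1 7.22 and 7.37 TPM there. Mitf, Dcx and Gad1 were named after their values were seen.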

How the data were processed

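mRNA from 4 neural stem cell libraries, 1 per group, was sequenced with a stranded short-read kit per the labels, whereas the series text speaks of long reads. TPM values were deposited by the authors, and the submitters' processing notes name Trimmomatic, HISAT2, StringTie and the build mm10. The annotation release and the depth are not given in the sources used here, so no counting interval could be made. Every sample column was used (0 left out).

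Differences were computed on log2(TPM + 1). A gene reaching a TPM of 10 in either library compared was called at a difference of 1. The members and the lists were picked with earlier results of these data known. Named genes were the members, other Sox genes and Sox-named antisense or overlapping transcripts at 1 TPM or more, Tut1, Trp53, and the called and most abundant genes of each list. Other named genes, and the Sox3:Sox2, Sox12:Sox4, Sox21:Sox2 and Sox10:Sox9 ratios, were chosen after values were seen. The lists were other Sox family genes, POU partners, SOX targets, and markers of radial glia, astrocytes, the oligodendrocyte lineage, neurons, neural crest, connective tissue, endothelium and microglia. Alternatives were pseudocounts of 0.1 and 5, TPM minimums of 1, none, or 10 in both libraries, centring on the median, quantile normalization, TPM rescaled without 125 mitochondrial and ribosomal protein genes, a lower threshold (1.5-fold), and a quadratic correction for GC content and length fitted over 8469 genes. A 1.5-fold threshold with a TPM minimum of 1 was added after seeing the data.

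Coordinates and transcripts came from GENCODE M21 (GRCm38), which held 99.38% of the gene IDs, and promoters from RefSeq (GRCm38.p6). The code was tested on simulated data. Python 3.11.15, numpy 2.4.6, pandas 2.3.3, biopython 1.88 and matplotlib 3.10.9 were used.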

Additional observations from a re-analysis of the deposited data

How the results depend on the processing

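Each of 11 alternative settings was applied to the calls, the medians and each Sox gene's difference. Of these settings, 6 can alter a difference and the others change the minimum or the threshold alone. Under those 6, 234 of 240 single differences changed from their main value by less than the spread of all genes. That spread was the median absolute deviation, 0.145 to 0.229 by contrast. This compares settings and does not say how large the differences themselves are. The median of the Tut1 contrast with p53 present less that without it moved from -0.43 to -0.12 with the GC and length correction, and the cause was not tested. With the 1.5-fold threshold and a TPM minimum of 1, chosen after seeing the data, the number of Sox genes called for Tut1 KO minus control moved from 0 to 1, which was Sox10 at 0.59. Both changes were needed for this call, since neither the lower minimum nor the 1.5-fold threshold alone called a Sox gene in any contrast. The 1.5-fold threshold alone called 12.1% of genes tested for Tut1 KO minus control and 10.7% for double KO minus Tut1 KO. For Trp53 KO minus control, the median of -0.10 was -0.05 with medians set to 0, -0.04 with quantile normalization and -0.03 with the GC and length correction. Signs of small differences turned for Sox6 and Sox11 with medians set to 0, for Sox11 with quantile normalization, and for Sox5, Sox6 and Sox11 with the GC and length correction, which also brought Sox11 from -0.50 to -0.21 for Tut1 KO minus control. No paired analysis was possible because each group held 1 library, and no library could be left out for the same reason. TPM keeps no depth, so the precision of low genes such as Sox1 and Sox10 is unknown.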
